A study of Canis lupus familiaris with 20 samples.

Results

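ICAM1 and VCAM1 are the adhesion molecules by which leukocytes hold on to endothelium and to other cells. Their probes were taken from the canine array by matching the reference sequence named for each probe to a gene symbol. This gave 3 of the 43603 distinct probes, of which ICAM1 had 2 (A_11_P0000019508, the brighter, and A_11_P0000028981, the dimmer) and VCAM1 had 1 (A_11_P050516). The remaining probes were used only to fit the tests, and 1648 probes in all carried a symbol, for 1045 genes.

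The study grew 5 canine mammary tumour lines with canine macrophages and measured both on 20 two-colour arrays, 10 for each cell type. Of the lines, CMT-W1 and CMT-W2 were adenocarcinomas, P114 an anaplastic cancer, CMT-U309 a spindle-cell tumour and CMT-U27 a simple carcinoma. Macrophages came from CD64-positive blood monocytes of healthy dogs, and were partly differentiated after 72 h of culture without added growth factors. Monocytes were laid on cancer cells stained with the dye CMTMR, and after at least 72 h the stained cancer cells and the unstained macrophages were sorted by flow cytometry. Each array compared a sorted population with its own mono-culture in the same medium, and a second array repeated this with the dyes exchanged. Such a dye-swap pair was counted as 1 replicate, so each cell type had n = 5, with 1 pair per line. The co-cultured cells were trypsinized and sorted while the mono-cultures were scraped, so co-culture and the way of harvest cannot be told apart. The number of separate macrophage mono-cultures was not stated in the sources used here, and the errors may therefore leave out part of their spread.

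ICAM1 is a surface glycoprotein of the immunoglobulin superfamily. It is bound by the leukocyte integrins LFA-1 and Mac-1, is present at low level on many cells and is induced by inflammatory cytokines and Toll-like receptor ligands through NF-kappaB. VCAM1 belongs to the same superfamily, is bound by the integrin VLA-4 and is best known from endothelium activated by cytokines. In tumours both have been studied as molecules by which cancer cells and macrophages attach to each other.

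Some arrays stood apart. In the cancer cells, the CMT-U309 array whose Cy5 dye held the co-culture had 9870 spots with an outlier mark and the CMT-W2 array of that orientation had 1438, against 6 to 110 on each of the others. The 6 macrophage markers matched to a probe (ADGRE1, C5AR1, CD163, CD209, CTSS and FCGR1A) also moved with the condition. Most probes carried no symbol, so other markers may be on the array unmatched. In the cancer cells 5 of the 6 rose in co-culture and none fell, where 6.4% of all genes rose and 6.81% fell. In the macrophages all 6 fell, where 28.5% of all genes did. Of the 6, 4 passed the filter on dim probes in the cancer cells only through the co-culture. Their summed level was 371 to 3793 in the mono-cultured cancer cells and 9681 to 314953 in the sorted ones, against 356214 to 511965 in the mono-cultured and 8165 to 152694 in the sorted macrophages. In the CMT-U27, CMT-W2 and CMT-W1 co-cultures the sorted cancer cells had 397%, 461% and 119% of the summed level of the macrophages sorted beside them. In the P114 and CMT-U309 co-cultures they had 78.7% and 37.6%. In samples of this kind a change in the number of cells of a type and a change in RNA per cell cannot be told apart. CLDN3, a tight junction protein, was the only gene of the epithelial marker list matched to a probe. It fell in the sorted cancer cells (log2 ratio -1.65 ± 0.96 (SD, n = 4), limma adjusted p = 0.0431), where CMT-U309 was left out for an outlier mark. The part of these shifts in the results below was not tested.

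ICAM1 transcripts rose in the cancer cells grown with macrophages. On the brighter probe the log2 ratio, taken throughout as the co-culture against the mono-culture, was 2.76 in CMT-U27, 1.89 in CMT-W2, 1.20 in P114, 0.73 in CMT-U309 and 0.49 in CMT-W1. All 10 arrays were above 0, from a 6.77-fold rise in CMT-U27 to a 1.40-fold rise in CMT-W1, which with 1 pair per line is a description. The arrays of a pair lay within 0.03 to 0.19 of their mean on this probe over both cell types. The mean was 1.41 ± 0.92 (SD, n = 5), with a 95% confidence interval of 0.58 to 2.25. This is a 2.66-fold rise, and it passed the test by a small margin (limma against 0, Benjamini-Hochberg adjusted p = 0.0415). Of 23539 genes tested, 6.4% were called up and 6.81% down, and their median log2 ratio was -0.03. A 3-fold rise was reached on 4 of the 10 arrays, namely those of CMT-U27 and CMT-W2.

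The call rested on all the lines together. Only without CMT-W1 did the adjusted p stay under the threshold (log2 ratio 1.65, p = 0.0424 from limma). It was 0.0843 without CMT-U27 (1.08), 0.0546 without CMT-U309 (1.59), 0.0959 without P114 (1.47) and 0.104 without CMT-W2 (1.29). Without CMT-U27 and CMT-W2, the lines with the largest rise and with sorted cancer cells richest in macrophage markers relative to their macrophages, the log2 ratio was 0.81 (limma adjusted p = 0.216), an alternative chosen after seeing the data.

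The dimmer ICAM1 probe gave the same direction in the cancer cells. Its log2 ratio was 3.26 in CMT-U27, 2.24 in CMT-W2, 1.40 in CMT-W1, 0.84 in P114 and 0.70 in CMT-U309, with a mean of 1.69 ± 1.07 (SD, n = 5) and an adjusted p of 0.0351 when every probe was fitted on its own with limma. CMT-U27 and CMT-W2 stood highest on both probes. The CMT-W1 value on this probe has a weak denominator, as its mono-culture signals of 24.1 and 39.3 were not well above background on either array, and the mono-culture signal of CMT-U27 was not on 1 of its 2 arrays.

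In the macrophages the probes of ICAM1 had nearly the same mean but a different spread. On the brighter probe the log2 ratio was 1.84 in macrophages grown with P114, 1.75 with CMT-U309, 1.55 with CMT-U27, 0.29 with CMT-W2 and -0.40 with CMT-W1. The first 3 co-cultures lay close together and well above the other 2, and both arrays of the CMT-W1 pair were below 0. The mean was 1.00 ± 1.00 (SD, n = 5; 95% confidence interval 0.12 to 1.89), a 2.01-fold difference that did not pass the test (limma adjusted p = 0.0594). In this comparison 21.5% of 23898 genes were called up and 28.5% down, with a median of -0.17 over all of them, so that ICAM1 lay 1.17 above the median gene. Without the CMT-W1 co-culture the mean was 1.36 (limma adjusted p = 0.0135), and leaving out any other co-culture gave 0.80 to 1.18.

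On the dimmer probe the macrophage log2 ratio was 1.17 with P114, 1.08 with CMT-U309, 1.07 with CMT-U27, 0.82 with CMT-W2 and 0.81 with CMT-W1. All 10 arrays were above 0 and both channels were well above background on each of them. The mean of 0.99 ± 0.16 (SD, n = 5; 95% confidence interval 0.52 to 1.46), a 1.98-fold rise, passed the test (limma adjusted p = 0.00628). The pair means stood in the same order on both probes. On the brighter probe, however, the arrays of P114, CMT-U309 and CMT-U27 overlapped with each other. On the dimmer probe CMT-U309 overlapped in its arrays with P114 and with CMT-U27. CMT-W1 overlapped there with CMT-W2, CMT-U27 and CMT-U309. Co-cultures with overlapping arrays could not be ordered on that probe. The probes disagreed most on CMT-W1, where the arrays gave -0.46 and -0.34 on the brighter probe and 0.55 and 1.07 on the dimmer. The files do not say which transcripts each probe reads.

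**Figure D1:**
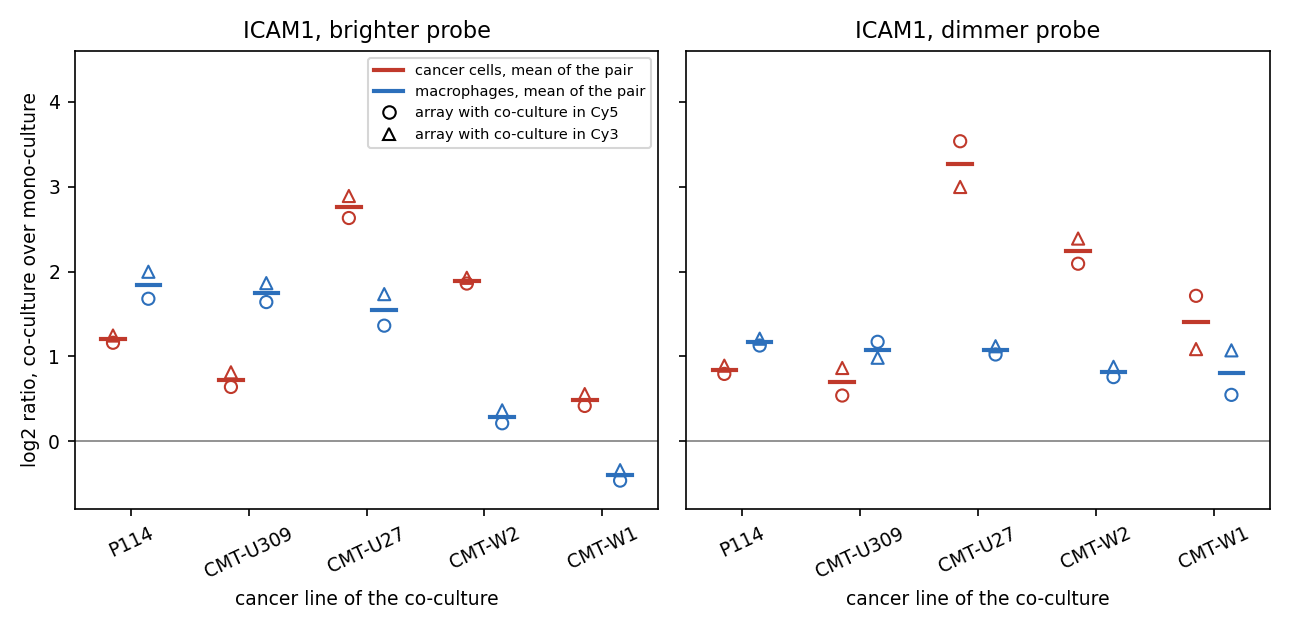
ICAM1 log2 ratio, co-culture over mono-culture (vertical axis) in each co-culture (horizontal axis), for the brighter probe (left) and the dimmer probe (right). Symbols are single arrays and bars the mean of a dye-swap pair, with cancer cells in red and macrophages in blue. All 20 cancer cell symbols lie above 0, from the CMT-W1 pair at 0.49 to the CMT-U27 pair at 2.76 on the left, and the macrophages spread from -0.40 to 1.84 on the left but only from 0.81 to 1.17 on the right.

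Whether the 2 cell types responded to a different degree was tested directly. The log2 ratio of ICAM1 in macrophages minus that in cancer cells was -0.41 (95% confidence interval -1.61 to 0.80, limma adjusted p = 0.603), while 32.1% of 22652 genes differed. A difference was thus not detected, and the interval allows the fold change of the macrophages to be between 0.327 and 1.74 times that of the cancer cells. The sign depended on the co-culture. In CMT-U27 and CMT-W2 the cancer cells had the larger ratio, by 1.21 and 1.60, as they did by 0.89 in CMT-W1, and in CMT-U309 and P114 the macrophages had it, by 1.03 and 0.63. The arrays lay on 5 slides, of which 1 held both cell types. Within that slide the difference was 1.06, between macrophages of the CMT-U27 co-culture and CMT-W1 cells, and with the scan day as a block it was 0.13 (limma adjusted p = 0.954). Both values rest on the macrophages of the CMT-U27 co-culture, the 1 macrophage pair scanned with the 5 cancer cell pairs, so cell type and slide can hardly be told apart.

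Before co-culture the lines already differed in ICAM1. On the brighter probe the log2 level, the normalized signal averaged over both dyes, was 13.19 in P114, 13.09 in CMT-U309, 11.39 in CMT-U27, 11.05 in CMT-W2 and 10.32 in CMT-W1. P114 and CMT-U309 overlapped in their arrays and could not be ordered, whereas each further step down exceeded the spread of the arrays. The step from CMT-U309 to CMT-U27 was 3.25-fold, and the whole range was 7.29-fold. The dimmer probe gave the same order, but there CMT-U27 and CMT-W2 overlapped as well, and CMT-W1 was not well above background. The range on that probe was 11.2-fold over all 5 lines and 4.21-fold without CMT-W1. Only the former covers the same lines as the 7.29-fold. With 1 pair per line these are descriptions of the cultures measured.

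Mono-cultured macrophages had an ICAM1 level of 13.10 ± 0.19 (SD, n = 5; 12.82 to 13.29), beside 11.81 ± 1.28 (SD, n = 5) in the mono-cultured cancer cells. P114 and CMT-U309 cells lay within the macrophage range and the other 3 lines below it. On the dimmer probe P114 (9.61) and CMT-U309 (9.49) lay below the macrophage range of 9.93 to 10.22 too. The difference on the brighter probe, 1.29 (95% confidence interval 0.12 to 2.47), did not pass the test (limma adjusted p = 0.0826), in a comparison where 34.9% of 23678 genes did.

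After co-culture the level on the brighter probe was higher than in mono-culture in every population but the macrophages of the CMT-W1 co-culture. In the sorted cancer cells the log2 level of ICAM1 was 14.39 in P114, 14.15 in CMT-U27, 13.81 in CMT-U309, 12.94 in CMT-W2 and 10.81 in CMT-W1, a 12.0-fold range. CMT-U27 had passed CMT-U309, with overlapping arrays, and CMT-W1 stayed lowest. In the sorted macrophages it was 15.08 with P114, 15.04 with CMT-U309, 14.37 with CMT-U27, 13.43 with CMT-W2 and 12.60 with CMT-W1, a 5.58-fold range where the mono-cultures had spanned 1.38-fold. In the macrophages the spread depended on the probe. On the dimmer probe the sorted macrophages spanned 1.56-fold and the mono-cultured ones 1.22-fold. The sorted cancer cells of all 5 lines spanned 10.1-fold on it, where CMT-W1 was not well above background on every array. Without CMT-W1 they spanned 2.13-fold, which is not comparable with the 12.0-fold of all lines. By pair means the adenocarcinoma co-cultures CMT-W1 and CMT-W2 thus held the lowest ICAM1 level in both sorted populations. On the dimmer probe, however, the arrays of CMT-W2 and CMT-U309 cancer cells overlapped. So did those of macrophages from the CMT-W1 and CMT-U27 co-cultures. Cells of both adenocarcinoma lines were already lowest in mono-culture, and with 1 pair per line this is a description. Macrophages minus cancer cells was 0.88 (95% confidence interval -0.73 to 2.49; limma adjusted p = 1.00), and of 23733 genes 0.00421% differed between the sorted populations.

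These levels can be set beside the macrophage markers. The highest of the 10 mono-culture values on the brighter probe, macrophages included, was 13.29. The 5 macrophage values among them may come from fewer cultures. In 3 of the 5 lines (P114, CMT-U27 and CMT-U309) the sorted cancer cells had more ICAM1 than this highest value, and so had macrophages of 4 co-cultures. On the dimmer probe the highest mono-culture level was 10.22, which CMT-U27 (10.86), P114 (10.45) and the macrophages of all 5 co-cultures exceeded and CMT-U309 (10.19) did not. The rise of ICAM1 in the sorted cancer cells came to 73.0% of the level of the macrophages sorted beside them in CMT-U27, 51.8% in CMT-W2, 35.2% in P114, 16.9% in CMT-U309 and 8.29% in CMT-W1. In the sorted macrophages ICAM1 and the macrophage markers went opposite ways in 4 of 5 co-cultures on the brighter probe. All 6 markers fell there over the 5 co-cultures, and the scavenger receptor CD163 fell by 5.45 on the log2 scale.

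**Figure D2:**
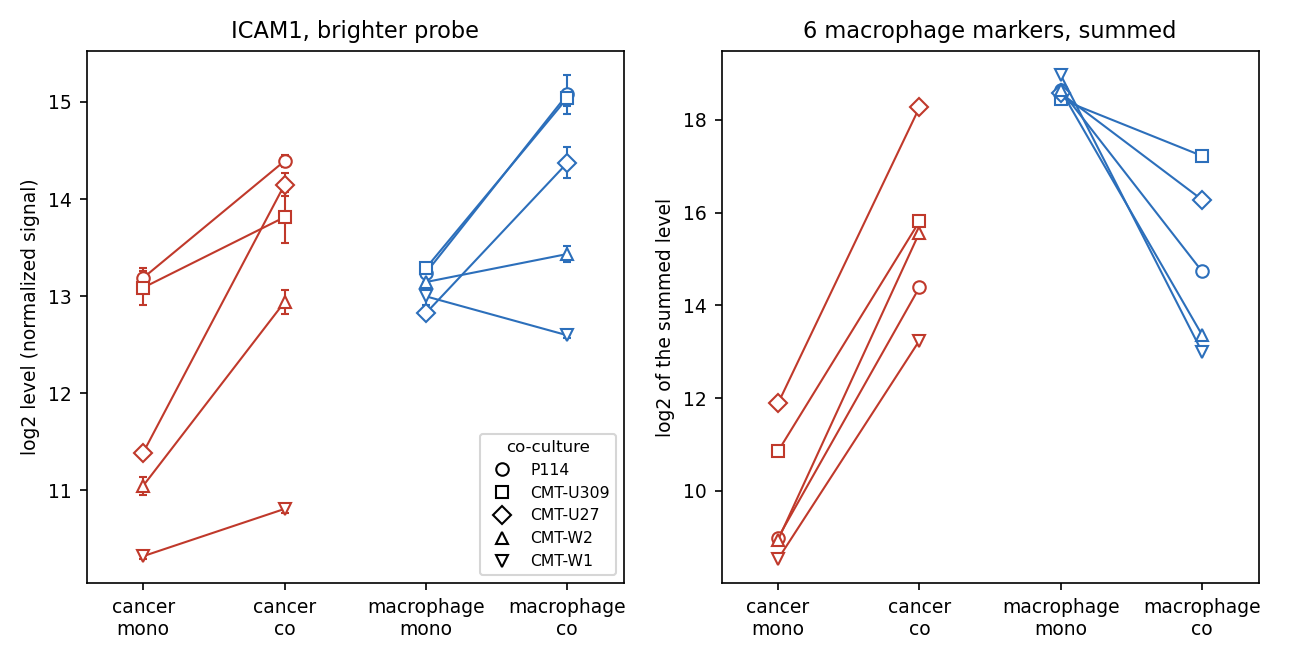
Log2 level of ICAM1 on the brighter probe (left; bars are the lower and the higher array of a pair) and log2 of the summed level of the 6 macrophage markers (right) in the 4 cultures, with a line for each co-culture. ICAM1 rose from mono-culture to co-culture in all 5 cancer lines and in macrophages of 4 co-cultures, while the markers rose in every sorted cancer population and fell in every sorted macrophage population.

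VCAM1 was near the background of the array. In the macrophages its processed signal ran from 8.56 to 26.6 and none of the 20 channels was well above background, in mono-culture or in co-culture. In the cancer cells 15 of 20 channels were likewise not well above background. An unmarked spot was well above background in 1 channel only, that of mono-cultured CMT-U309, with a signal of 38.5 against 16.0 for the co-cultured cells on the same array. VCAM1 therefore failed the filter in both cell types and was not tested, and no fold is given. On 13 of the 20 arrays the deposited log ratio of this probe was exactly 0.

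The only bright VCAM1 readings carried an outlier mark. On the CMT-U309 array with the co-culture in Cy5 the signal was 2017 in co-culture and 3573 in mono-culture, and on the CMT-W2 array of that orientation it was 489 and 295. These are the 2 arrays with the most marked spots. Their dye-swap partners carry the same RNA and read 16.0 and 38.5 in CMT-U309 and 17.2 and 13.9 in CMT-W2, of which only the 38.5 was well above background. With marked spots left out, no culture had VCAM1 well above background on both arrays of a pair, which at this signal does not show its absence.

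**Figure D3:**
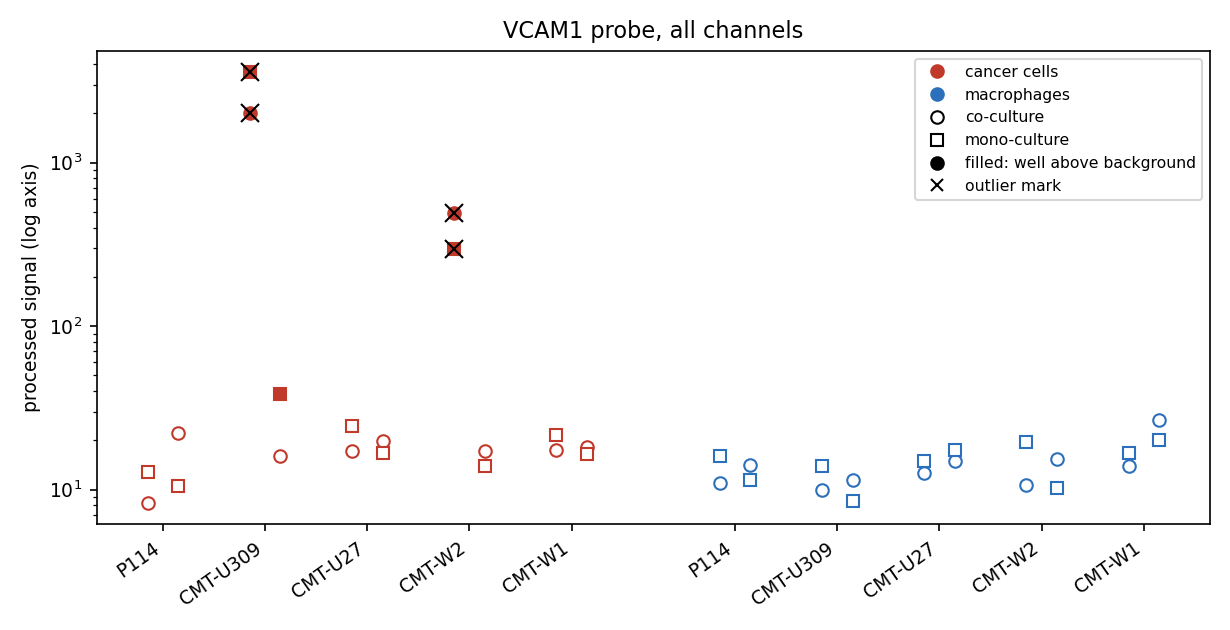
Processed signal of the VCAM1 probe (logarithmic axis) in every channel, cancer cells in red and macrophages in blue, with the array with the co-culture in Cy5 drawn left of its dye-swap partner. The 4 crossed symbols between 295 and 3573 are spots with an outlier mark, and all others lie between 8.29 and 38.5.

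Few other genes of the pathway could be matched to a probe, and only matched genes are called represented below. Of 9 integrin subunits that form the receptors of both molecules, only ITGAD was represented, and it was not tested because its signal was too dim. Of 29 other adhesion molecules 6 were represented and all 6 were tested in each cell type. None rose, where 6.4% of all genes rose in the cancer cells and 21.5% in the macrophages. By the same test 6.81% and 28.5% of all genes fell, and so few members do not set the 6 apart. MADCAM1, the mucosal addressin bound by integrins on lymphocytes, fell in the cancer cells by 1.58 on the log2 scale (limma adjusted p = 0.0219), and CD34, a sialomucin of progenitor and endothelial cells, fell in the macrophages by 0.95 (limma adjusted p = 0.0162). The median of the 6 was -0.48 in the cancer cells and -0.50 in the macrophages. SELE, the endothelial E-selectin, had log2 ratios of 0.21 ± 1.41 and 0.12 ± 1.27 (SD, n = 5 each) and CD44, the hyaluronan receptor, of -0.29 ± 0.90 and 0.30 ± 0.98 in cancer cells and macrophages, none of which passed. CD47, a ligand of the macrophage receptor SIRPA, had 1.59 ± 1.20 in the cancer cells (limma adjusted p = 0.0518) and -0.78 ± 1.05 in the macrophages.

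A further list held 26 genes, namely cytokines and receptors known to induce ICAM1 or VCAM1 and members of the NF-kappaB pathway. Of the 26, 12 were represented and 9 tested. In the cancer cells 7 of the 9 rose and none fell, where 6.4% of all genes rose. The 7 were IL1A, IL1B, TLR2, CD40, IL6, TLR4 and NFKB1. Of these, IL1A, IL1B, IL6 and TLR2 passed the filter on dim probes only through the co-culture, so the count is a description of the genes that were bright enough. In the macrophages 2 of the 9 rose and 3 fell, where 21.5% of all genes rose and 28.5% fell. The 2 that rose were IL6 and NFKB1, and the 3 that fell were IL1A, TLR2 and TLR4. IL6 passed the filter in the macrophages too only through the co-culture, so this count is likewise a description.

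NFKB1 and IL6 were the genes of that list that rose in both populations, where IL6 passed the filter on dim probes only through the co-culture in each. NFKB1, the precursor of the p50 subunit of NF-kappaB, had a log2 ratio of 1.33 ± 0.75 in the cancer cells (limma adjusted p = 0.033) and 0.74 ± 0.50 in the macrophages (limma adjusted p = 0.0435), higher in all 5 pairs of each. IL6, a cytokine whose transcription NF-kappaB drives, rose by more, 4.37 ± 1.54 and 4.53 ± 1.56, from mono-cultures well above background in only 4 of 10 channels in the cancer cells and 2 of 10 in the macrophages. For neither gene did the difference between the cell types pass the test (limma adjusted p = 0.292 and 0.906). TLR4, the receptor of endotoxin, went opposite ways, 3.55 ± 0.62 in the cancer cells and -3.11 ± 1.20 in the macrophages. IL1A, which induces ICAM1 in many cells, did so too, 5.25 ± 1.65 and -1.89 ± 1.70. In mono-cultured cancer cells IL1A and IL1B were well above background in only 3 of 10 channels each, so the size of their rise rests on dim denominators. TNF had 0.49 ± 0.34 and 0.32 ± 0.49 and did not pass in either cell type, and IFNG, IL4 and IL13 were too dim to be tested. The macrophage markers moved the same way as TLR2, TLR4 and IL1A in both cell types, and their part in these values was not tested.

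Of 9 proteins that link ICAM1 to the cell's skeleton or cut it from the surface, 2 were represented. MMP9, a matrix metalloproteinase that can release ICAM1, rose in the cancer cells by 3.09 ± 0.86 (SD, n = 5; limma adjusted p = 0.00429), and had -1.73 ± 2.20 in the macrophages (limma adjusted p = 0.0859). ELANE, neutrophil elastase, had 0.57 ± 0.76 in the cancer cells (limma adjusted p = 0.242) and was too dim to be tested in the macrophages.

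**Figure D4:**
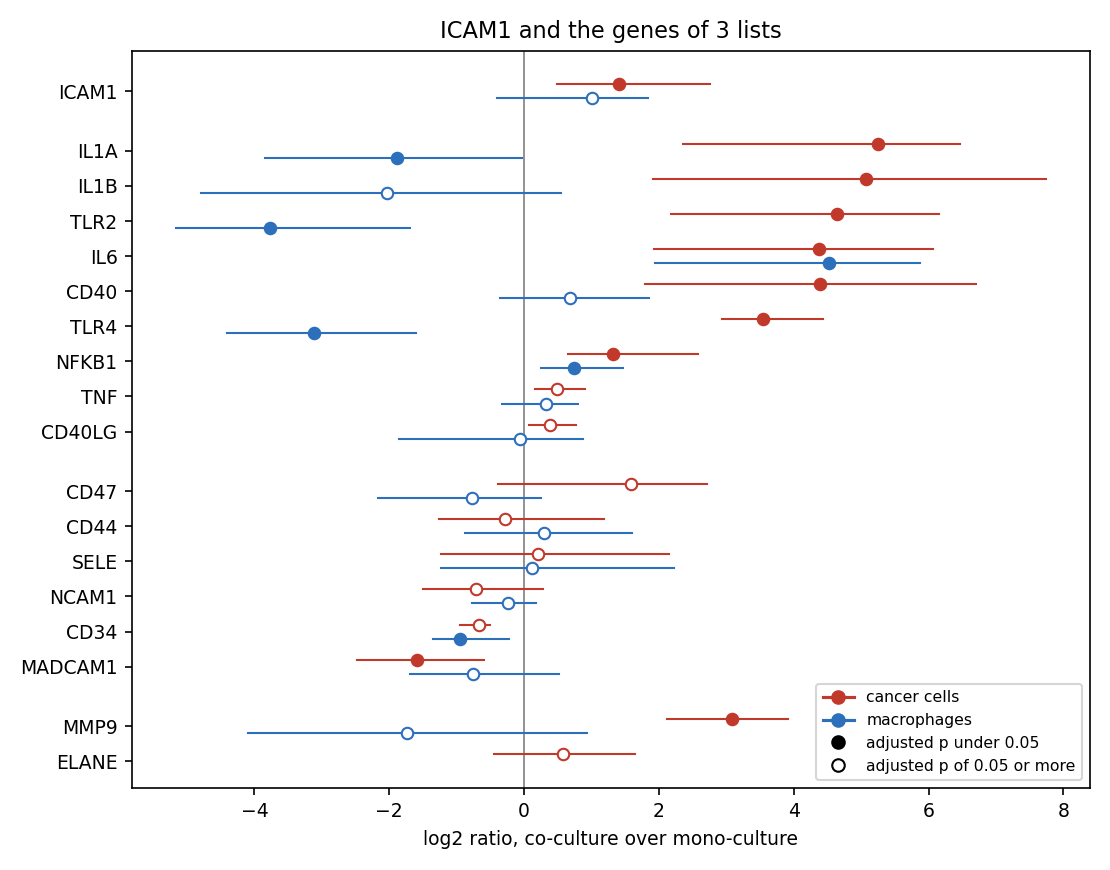
Mean log2 ratio, co-culture over mono-culture (horizontal axis) of ICAM1 on its brighter probe and of the tested genes of 3 lists, with a line from the lowest to the highest co-culture. Cancer cells are red, macrophages blue, and filled points have an adjusted p under 0.05. ICAM1, NFKB1, IL6, CD40, TNF and SELE lie right of 0 in both cell types, and of these only NFKB1 and IL6 are filled in both. IL1A, TLR2 and TLR4 lie far right in the cancer cells and left in the macrophages.

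Among 594 genes with a symbol that were measured in all 10 pairs, MT1E, ABCB1 and SSR2 had the pattern most like that of ICAM1. Pearson's r across the 10 log2 ratios was 0.93 for MT1E, a metallothionein that binds zinc and copper, 0.92 for ABCB1, the drug efflux pump P-glycoprotein, and 0.90 for SSR2, a subunit of the translocon-associated complex of the endoplasmic reticulum. Likeness in pattern was not likeness in size. The mean log2 ratio of MT1E was -0.87 in the cancer cells and -1.70 in the macrophages, that of ABCB1 was 0.87 and 0.02, and that of SSR2 was 1.07 and 0.55. All 3 had their lowest macrophage value with CMT-W1 and their highest cancer cell value in CMT-U27, as ICAM1 did. The 10 points share lines, arrays and control cultures, and r is given as a description.

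Markers of other cell types that express these molecules were also measured. Of the 4 endothelial markers matched to a probe (CD34, KDR, NOS3 and VWF) 3 were tested, and none of these 3 rose in either cell type. KDR was too dim to be tested. In the macrophages KDR was well above background in 5 co-culture channels and 0 mono-culture channels. Its mean log2 level there was 5.66 in co-culture and 3.93 in mono-culture. In the cancer cells KDR was well above background in 4 co-culture channels and 5 mono-culture channels. In the macrophages CD34, given above, and VWF (log2 ratio -0.66, limma adjusted p = 0.045) fell, where 28.5% of all genes did. Their summed level was 23185 to 39387 in the mono-cultured and 15459 to 29024 in the sorted cancer cells, and 42265 to 62439 and 22342 to 41164 in the macrophages. Of the 4 fibroblast markers COL1A1, COL1A2 and PDGFRB were tested, and of these only PDGFRB passed, falling in the cancer cells. Of the 3 lymphocyte markers, CD4 and CD8A were tested in both cell types and MS4A1 in the macrophages only. None rose by the test. In the macrophages CD4 (log2 ratio -1.26, limma adjusted p = 0.0242) and CD8A (-0.64, limma adjusted p = 0.0435) fell, where 28.5% of all genes did. MS4A1 went the other way there, with 2.52 ± 2.78 (SD, n = 5; limma adjusted p = 0.0535). It was higher in 4 of 5 pairs and passed the filter on dim probes only through the co-culture.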

How the data were processed

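The authors deposited the output of Agilent's Feature Extraction (version 10.7.3.1) for each array. Its intensity columns hold linear spot signals, and the deposited log10 ratio holds Cy5 over Cy3 after background correction and dye normalization. Further deposited columns hold marks (0 or 1) for saturation, outliers and signal well above background. No column was without a sample.

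Every ratio was turned so that the co-culture was the numerator, converted to log2 and averaged within its dye-swap pair; a pair with an outlier mark was dropped for that gene. A gene was its brightest probe, tested where the channel of the co-culture, or that of the mono-culture, was well above background on the 2 arrays of 3 or more pairs. The ratio against 0 in each cell type and the difference between cell types were fitted with limma (version 3.58.1, R 4.3.3), with p-values adjusted by Benjamini-Hochberg over all genes tested. Levels came from processed signals after Aquantile normalization. The test scripts were tested on simulated data. On the cancer cell arrays 51.0% to 96.3% of spots were well above background in co-culture, and on the macrophage arrays 54.5% to 74.7%. The number of arrays limits the precision.

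Populations sorted from 1 co-culture are paired by design. Their deviations from the group means correlated at 0.08 to 0.50, against -0.39 to 0.14 between co-cultures. Symbols came from RefSeq's gene table of UU_Cfam_GSD_1.0. As the array was designed on another build, coordinates were not used. All matched genes of the lists and the 3 genes most like a member were eligible to be named. The members and lists were chosen with earlier results of these data known. Alternatives covered normalization, filters, outlier marks, dyes, probes, blocks, the methods' t-test, the deposited table of values (equal to the ratio used) and each co-culture left out.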

Additional observations from a re-analysis of the deposited data

Results flagged for a closer look

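Of 74 groups of 5 (or 4) values tested for a value far from the rest, 5 had one, where chance flags about 1 in 20, and none was a value of ICAM1. In the cancer cells the log2 ratio of CMT-W1 stood apart as the lowest for IL1A (2.36) and CD163 (2.11). CMT-U309 stood apart as the highest for COL1A1 in the cancer cells (1.40) and in the macrophages (2.95) and for COL1A2 in the cancer cells (1.71).

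The log2 ratio differed between the cell types, by limma's test of the difference, for 15 of 30 genes of the lists, where 32.1% of 22652 genes did, while ICAM1 did not pass that test. Macrophages minus cancer cells was -11.34 for CD163, -10.71 for C5AR1, -9.45 for FCGR1A, -8.85 for CTSS, -8.41 for TLR2, -7.46 for CD209, -7.14 for IL1A, -7.11 for IL1B, -6.66 for TLR4, -5.65 for ADGRE1, -4.82 for MMP9, -3.71 for CD40, -2.37 for CD47, -1.64 for CD4 and 1.32 for PDGFRB. Of these, CD163, C5AR1, TLR2, CD209, IL1A, IL1B and ADGRE1 passed the filter on dim probes in the cancer cells only through the co-culture. The count of 15 is therefore a description of genes bright enough to be tested, and is not read as an excess over the 32.1%.

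Outside the tested values, VCAM1 gave signals above those of all its unmarked spots on 2 spots with an outlier mark. They were 2017 (co-culture) and 3573 (mono-culture) on an array of CMT-U309 cancer cells and 489 and 295 on an array of CMT-W2 cancer cells.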

How the results depend on the processing

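ICAM1 in the cancer cells kept its direction under all 20 alternatives (log2 ratio 0.81 to 2.03). It no longer passed with normexp and loess (1.29, limma adjusted p = 0.086), without the filter on dim probes (1.41, p = 0.0903), with the Cy5 co-culture arrays alone (1.34, p = 0.0587), by the methods' t-test (1.41, adjusted p = 0.733), without CMT-U27 and CMT-W2 (0.81) and without any 1 of the other 4 co-cultures (1.08 to 1.59), while without CMT-W1 it passed (1.65). Normexp with median centring moved the median of all genes in the cancer cells to 0.19 and ICAM1 to 2.03. In the macrophages ICAM1 (0.80 to 1.36) newly passed with the Cy3 co-culture arrays alone (1.12), on the dimmer probe (0.99), with 10 arrays, which counts both arrays of a pair as replicates, and a dye term (1.00) or the slide as a random block (1.04), in 1 fit for both cell types (1.00) and without CMT-W1 (range over left-out co-cultures 0.80 to 1.36).

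The difference between cell types never passed. It changed sign with the slide (1.06) or the scan day (0.13) as a fixed block and without CMT-U27 and CMT-W2 (0.26), and both blocks rest on the same 1 macrophage pair. With the co-culture as a replicate block it was -0.41 (limma adjusted p = 0.507), and the block changed no call on the levels either. The level differences kept direction and side of the threshold throughout.

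Genes called in the cancer cells were 55 with normexp and loess, 1803 without the filter, 1944 with Cy5 co-culture arrays, 9635 with a dye term and 7039 with the slide as a random block (both over 10 arrays), 8 by the methods' t-test (2385 before adjustment), 125 without CMT-U27 and CMT-W2 and 587 to 2482 with 1 co-culture left out, against 3109. Both counts by the methods' t-test used a threshold of 0.05, without the paper's stricter p cut-off or its 3-fold criterion. In the macrophages the genes called were 6566 with median centring and 4879 without both co-cultures, against 11941. For the difference they were 4049 with median centring, 0 with the slide (limma) and 1637 with the scan day as a fixed block, 2283 without both co-cultures and 4590 to 6401 with 1 left out, against 7264. For mono-culture levels leaving out a line gave 5212 to 9624, against 8270, and for co-culture levels 0 to 1, or 2 with outlier spots kept, against 1.

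VCAM1 was not tested. With outlier spots counted, 5 cancer cell channels in place of 1 were well above background. No ratio is given without the filter, since 13 of 20 arrays list exactly 0. The causes of these shifts were not tested. The scan-day block and the sets without doubted arrays or co-cultures were chosen after seeing the data.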
